A study of Homo sapiens with 6 samples.

Results

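Monocyte identity and differentiation genes are 40 genes picked by name: integrins, receptors for colony-stimulating factors and for antibodies, lineage transcription factors, and secreted products of monocytes or macrophages. All 40 had a row among the 26347 genes of the count table. They were followed in THP-1, an established human line derived from a monocytic leukaemia, in 3 libraries of cells given a negative control microRNA mimic and 3 of cells given a miR-125a-5p mimic. RNA was taken 24 h after transfection in all of them, so every library comes from transfected cells and no untreated culture is compared here. The study's title speaks of macrophages, whereas the sample labels describe THP-1 monocytic cells and name no differentiating agent. The labels do not say whether the 3 libraries of a group came from separate cultures, so the spread behind each p-value may be technical. Libraries of bulk RNA cannot tell fewer cells carrying a message from less of it per cell.

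Monocytes arise from myeloid progenitors under the transcription factor PU.1, encoded by SPI1, together with C/EBP proteins, IRF8 and KLF4, and they depend on macrophage colony-stimulating factor acting through CSF1R. They adhere through beta 2 integrins, bind antibody-coated particles through Fc receptors that signal through adaptors carrying an ITAM motif, and change their surface and secreted proteins as they become macrophages. A mature microRNA guides Argonaute proteins to messenger RNAs whose 3′ untranslated region (3′ UTR) pairs with its seed, which usually lowers the level of the message.

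Mature miR-125a-5p and the best seed matches in the 3′ UTRs of the 40 genes are shown because they tell which of these messages could pair with the mimic directly. In the mature sequence, from RefSeq on GRCh38.p14, the capitals mark the seed, bases 2 to 8.
miR-125a-5p: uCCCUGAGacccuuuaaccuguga
The classes searched, on the strand of the message, were the 8mer CTCAGGGA, the 7mer-m8 CTCAGGG, the 7mer-A1 TCAGGGA and the 6mer TCAGGG, each shorter one being part of the 8mer, and a gene was counted under its best match. Matches of 7 or 8 bases lay in the longest annotated 3′ UTR of 5 genes, and in the windows of 30 bases below the capitals mark the match.
CSF2RB: gctcagtgaggCTCAGGGAattcagactag
ITGAM: gcatgtgtgtgCTCAGGGgcgtgtggctca
ITGAX: gtcagcatcagCTCAGGGcttcatcgtggg
FCGR1A: gtgggtagattTCAGGGAgacaagagggaa
MAF: aaatgttatttTCAGGGActgacatcctgt

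CSF2RB held the 1 8mer, at chr22:36939072-36939079 on the plus strand, in the last of 14 exons (GENCODE 29, GRCh38). It lay in 1 of the 3 annotated 3′ UTRs of that gene that were searched. ITGAM and ITGAX, neighbouring genes of chromosome 16, each held a 7mer-m8 in the last of 30 exons, at chr16:31332032-31332038 and chr16:31382622-31382628 on the plus strand. FCGR1A had a 7mer-A1 at chr1:149791905-149791911 on the plus strand, in exon 6 of 6, and MAF one at chr16:79596706-79596712 on the minus strand, in a transcript of 1 exon. The best match was a 6mer in ITGB2, ITGAL, PECAM1, CSF1R, KLF4, CD4, LILRB4, SPP1 and FCN1, and the other 26 genes held none of these letters in the 3′ UTR searched. Of the 39 members that could be tested, 5 (12.8%) had a match of 7 or 8 bases, against 3091 (24.2%) of the 12791 tested genes with a 3′ UTR that was searched. The median 3′ UTR of these members was 899 bases and that of all those genes 1342 bases.

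Depth lay between 8256149 and 10257791 counts per library. Levels are given as CPM, counts relative to library totals scaled by edgeR's TMM factors. Levels of different genes are compared only as CPM per kilobase of annotated exon. Control library 1 stood apart from the other 5 libraries on the first principal component, at -38.2 against 1.14 to 16.3. On the second component miR-125a-5p library 3 lay at 31.1, against -21.5 to 5.24. Control library 1 was the highest of the 6 libraries for 13 of the 39 tested members and the lowest for 7. Among the controls it was the highest for 18 of these members and the lowest for 11, beside 37.3% and 36.8% of all tested genes. The 9 defining monocytic markers were CD14, LYZ, CD68 and the members SPI1, CD33, FCER1G, TYROBP, CSF1R and ITGAM. They summed to 2844 to 3200 CPM in control and 2932 to 3062 CPM in miR-125a-5p libraries. As most of them are members, this sum is not independent of the values below. Markers of 9 other cell types were also summed, and the erythroid, megakaryocyte, neutrophil granule, epithelial, fibroblast, endothelial and T cell lists stayed at or under 4.71 CPM in every library, with CD3E, HBA1, HBB, PF4, PPBP, CEACAM8 and KRT18 among those at 0. NK cell markers summed to 53.4 to 55.5 CPM in control and 44.8 to 53.7 CPM in miR-125a-5p libraries, led by GNLY, and B cell markers were led by PAX5. The B cell list summed to 53.1 to 86.4 CPM in control and 44.7 to 62.2 CPM in miR-125a-5p libraries, with control library 1 the highest. PAX5, a B cell transcription factor, had 82.2, 69.3 and 49.5 CPM in control and 58.5, 43.3 and 40 CPM in miR-125a-5p libraries, so the groups overlapped. Its log2 fold change was -0.51 (SE 0.16, edgeR adjusted p = 0.501), and -0.33 without control library 1, and its part in the results below was not tested.

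The cells carried the machinery of the monocyte lineage at very unequal levels, over a range that ran from SPP1 down to FCN1 with no counts. SPP1, which encodes the secreted adhesive glycoprotein osteopontin, stood at 1195 ± 124 CPM per kilobase (SD, n = 3) in control libraries and ranked 14 among 12892 tested genes with a known exon length. The next were the ITAM adaptors FCER1G at 524 ± 71.8 and TYROBP at 447 ± 111 CPM per kilobase, then ITGB2 at 282 ± 47.1. GPNMB, a membrane glycoprotein of macrophages, TREM2, a lipid-sensing receptor that signals through TYROBP, and CSF1R followed at 236 ± 21.6, 226 ± 28.1 and 198 ± 13.4 CPM per kilobase. FCER1G and TYROBP differed by less than their spread, and so did the next neighbours in that order from ITGB2 to CSF1R. The median of the 12892 genes was 7.09 CPM per kilobase, and 7 of the genes described here lay under it: MAF, MMP9, KLF4, CEBPB, TREM1, FCGR3A and FCN1.

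**Figure D1:**
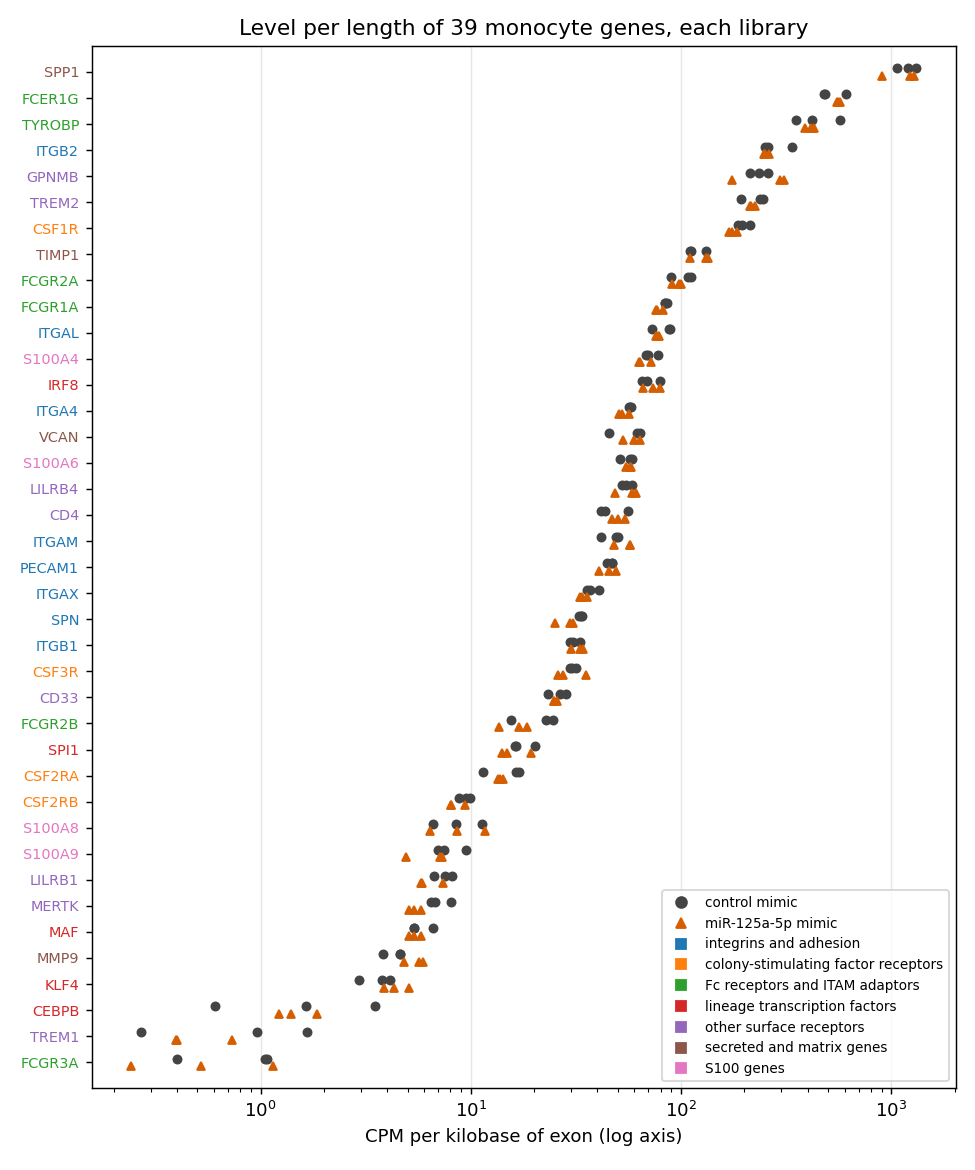
Level of 39 monocyte genes in each library, as CPM per kilobase of exon on a log axis, ordered by the mean of the 3 control libraries. Circles are control and triangles miR-125a-5p libraries, gene names are coloured by role, and FCN1, with 0 counts, is left out. SPP1 stands at 1195 CPM per kilobase and FCGR3A at 0.841, and circles and triangles lie close together for most genes.

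Genes that are typical of blood monocytes stood at unlike levels, with VCAN at 56.9 ± 9.91 and FCGR1A at 84.4 ± 0.997 CPM per kilobase but FCGR3A at 0.841 ± 0.381. S100A8 and S100A9, the subunits of calprotectin, which is abundant in the cytosol of blood monocytes and neutrophils, stood at 8.84 ± 2.37 and 7.99 ± 1.35 CPM per kilobase in control libraries, a little above the median of all genes. S100A4 and S100A6, calcium-binding proteins found in many cell types, stood at 71.8 ± 5.10 and 55.7 ± 3.86. FCN1, the ficolin secreted by monocytes, had 0 counts in all 6 libraries, which allows up to 0.292 to 0.363 CPM per library at 3 counts, for counting error only. FCGR3A, the low-affinity receptor CD16, had 5 to 27 counts per library, and CD14, the co-receptor for lipopolysaccharide, stood at 9.62 ± 2.05 CPM per kilobase in control libraries. How the counts of short or single-exon genes depend on the annotation used for counting is not given in the sources used here.

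The comparison of the mimics asked whether any of these genes differed after miR-125a-5p. By edgeR's quasi-likelihood test, adjusted by Benjamini-Hochberg over 14731 genes, 0 of the 39 tested members rose and 0 fell, where 0.0272% of all genes passed, all of them lower. The smallest adjusted p of a member was 0.670, for MERTK, and DESeq2 called 0 of the 34 to which it gave an adjusted p, leaving out FCGR3A, CEBPB, TREM1, S100A8 and S100A9. At an unadjusted edgeR p under 0.05, 3 members were lower (7.69%, beside 3.22% of all genes), namely SPN, FCGR2B and MERTK, and 1 was higher (2.56%, beside 2.69%), namely ITGAM. Without control library 1 these counts were 6 lower and 1 higher, beside 3.05% and 3.32% of all genes. Without control library 2 they were 1 lower and 2 higher (2.81% and 2.48%), and without control library 3 they were 5 lower and 1 higher (3.9% and 3.14%). With 1 miR-125a-5p library left out, 2 were lower each time (2.79% to 3.25% of all genes) and 0 to 2 higher (2.09% to 2.99%).

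A 95% interval for the difference shows how large a change these libraries leave possible. For 30 of the 39 genes it lay inside a change of 1.5-fold in either direction, and for 35 inside 2-fold. The 9 wider ones were FCGR2B, FCGR3A, CEBPB, KLF4, TREM1, MERTK, MMP9, S100A8 and S100A9, most of them genes of few counts. Of all tested genes, 59.4% had an interval inside 1.5-fold. The members were more often abundant, with a mean of at least 20 CPM in 32 of 39 against 7592 of the 14731 genes. The intervals cover each gene alone and are not adjusted for the number of genes.

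**Figure D2:**
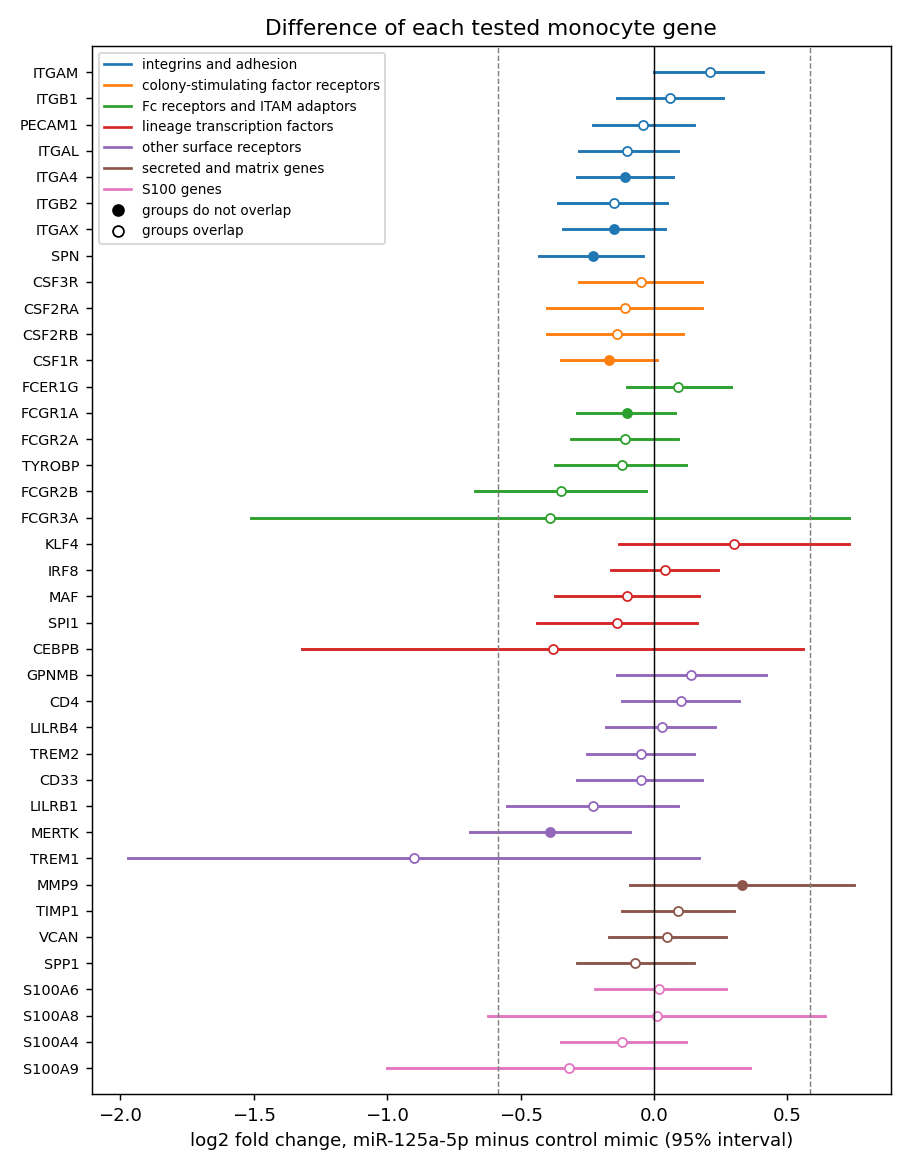
Log2 fold change of each tested gene, miR-125a-5p minus control mimic, with its 95% interval, grouped by role, and dashed lines at a 1.5-fold change. Filled points mark the 7 genes whose groups do not overlap. TREM1 has the lowest value, -0.90, with an interval from -1.97 to 0.17.

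More members lay below 0 than above. A negative fold change was seen in 26 of 39 (66.7%), beside 49.8% of all tested genes, and the median log2 fold change was -0.10, beside 0.0011 for all genes. Without control library 1 these values were 22 of 39 and -0.03. Set against the control mean, miR-125a-5p libraries 1, 2 and 3 had a median over the members of -0.09, -0.04 and -0.08, and control libraries 1, 2 and 3 of 0.01, 0.02 and -0.04. The groups did not overlap, with every miR-125a-5p library lower, for 6 of 39 genes (15.4%, beside 5.9% of all tested genes): ITGAX, ITGA4, SPN, CSF1R, FCGR1A and MERTK. The reverse held for 1 gene, MMP9 (2.56%, beside 5.31%). Among the 32 members with a mean of at least 20 CPM, 6 were lower without overlap (18.8%, beside 5.69% of all such genes) and 0 higher (beside 6.28%). These counts describe the chosen genes and carry no test. The genes were chosen with earlier results of these data known, and whether that choice shaped these shares was not tested.

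Integrins are paired chains, and the beta 2 chain ITGB2 (CD18) pairs with ITGAL (CD11a), ITGAM (CD11b) or ITGAX (CD11c). Per length, ITGB2 was far above its partners, which stood at 83.0 ± 8.73, 46.9 ± 4.80 and 37.8 ± 2.53 CPM per kilobase in control libraries. ITGAM had 196, 238 and 234 CPM in control libraries 1, 2 and 3 and 272, 270 and 229 CPM in miR-125a-5p libraries 1, 2 and 3. Its groups overlapped, since miR-125a-5p library 3 lay below control libraries 2 and 3. The log2 fold change of ITGAM was 0.21 (SE 0.10, edgeR adjusted p = 0.833), and 0.12 without control library 1. The gene carries the 7mer-m8 shown above, and its point estimate lay on the side of a rise.

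ITGAX, with the same class of match, had 214, 236 and 208 CPM in control and 207, 197 and 191 CPM in miR-125a-5p libraries. All 3 miR-125a-5p libraries were below all 3 controls, the closest pair differing by about 1 CPM, and its log2 fold change was -0.15 (SE 0.09, edgeR adjusted p = 0.884). ITGB2 had 1176, 902 and 881 CPM in control and 912, 871 and 878 CPM in miR-125a-5p libraries. Control library 1 alone was high, and the log2 fold change went from -0.15 to -0.01 without it. ITGAL, at 380 to 460 CPM in control and 398 to 411 CPM in miR-125a-5p libraries, had its lowest value in control library 1, and its log2 fold change was -0.10.

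ITGA4 and ITGB1 form the receptor VLA-4, which binds VCAM1 and fibronectin. ITGA4 was steady in control at 267, 262 and 265 CPM and lay at 261, 235 and 240 CPM after miR-125a-5p, a log2 fold change of -0.11 (SE 0.09). The groups did not overlap, although the highest miR-125a-5p value was within 1 CPM of the lowest control. ITGB1 had 117 to 130 CPM in control and 118 to 134 CPM in miR-125a-5p libraries, with overlapping groups.

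SPN encodes CD43, the large mucin-like sialoglycoprotein of leukocytes. It had 235, 237 and 229 CPM in control and 176, 206 and 215 CPM in miR-125a-5p libraries. The controls were close together and every miR-125a-5p library was lower, library 1 most of all. The log2 fold change was -0.23 (SE 0.09, edgeR adjusted p = 0.739), and -0.15 without miR-125a-5p library 1. No 6mer was found in its searched 3′ UTR of 5559 bases. PECAM1 (CD31), a homophilic adhesion receptor, had 304 to 321 CPM in control and 278 to 335 CPM in miR-125a-5p libraries, where the spread was wider and spanned the controls.

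The 4 receptors for colony-stimulating factors all had negative point estimates, between -0.17 and -0.05 on the log2 scale, and 0 of the 4 passed. CSF3R was at 0.04 without miR-125a-5p library 2, and CSF2RA at -0.01 without control library 2. With any 1 library left out, CSF1R stayed between -0.21 and -0.12 and CSF2RB between -0.22 and -0.10. CSF1R, the receptor kinase for macrophage colony-stimulating factor and interleukin 34, had 777, 851 and 747 CPM in control and 697, 735 and 679 CPM in miR-125a-5p libraries. All miR-125a-5p libraries were lower than all controls, with control library 3 and miR-125a-5p library 2 the closest pair, and the log2 fold change was -0.17 (SE 0.09, edgeR adjusted p = 0.843). Its 3′ UTR held 2 6mers and no longer match.

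CSF2RB, the beta chain shared by the receptors for GM-CSF, interleukin 3 and interleukin 5, is the gene with the 8mer. It had 42.7, 46.4 and 48.2 CPM in control and 45.8, 39.3 and 39.3 CPM in miR-125a-5p libraries. Libraries 2 and 3 of miR-125a-5p were below every control and library 1 was among them. The log2 fold change was -0.14 (SE 0.12, edgeR adjusted p = 0.919), with a 95% interval from -0.40 to 0.11, beside a median of -0.064 for the 761 tested genes with an 8mer. CSF2RA, the alpha chain of the GM-CSF receptor, had 32.9 to 48.8 CPM in control and 38.7 to 41.2 CPM in miR-125a-5p libraries, and CSF3R, the receptor for G-CSF, 103 to 110 and 89.8 to 122 CPM. CSF2RA lies in the pseudoautosomal region shared by the X and Y chromosomes, where reads can match 2 places, so its level is uncertain.

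Among the Fc receptors and adaptors 0 of 6 passed and 5 had negative point estimates. FCGR1A, the high-affinity receptor CD64, had 183, 182 and 186 CPM in control and 166, 179 and 168 CPM in miR-125a-5p libraries. The controls agreed within a few CPM and all 3 miR-125a-5p libraries were lower, for a log2 fold change of -0.10 (SE 0.09, edgeR adjusted p = 0.919). FCGR2B, the inhibitory receptor CD32B, had 33.3, 52.2 and 48.3 CPM in control and 39.6, 36.1 and 28.9 CPM in miR-125a-5p libraries. Control library 1 was low and overlapped the other group. The log2 fold change was -0.35 (SE 0.16, edgeR adjusted p = 0.799), and from -0.53 without control library 1 to -0.22 without control library 2.

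The genes FCGR2A, FCGR2B and FCGR2C are near-identical in long stretches, as are FCGR1A and its copies and FCGR3A and FCGR3B, so reads may have been split between them and their single levels are uncertain. FCGR2C, like FCGR2B, was lowest in control library 1 among the controls, at 92.3, 134 and 141 CPM, and had 99.7, 107 and 102 CPM after miR-125a-5p. FCGR2A, the activating receptor CD32A, had 217 to 271 CPM in control and 218 to 242 CPM in miR-125a-5p libraries. FCER1G, the common gamma chain of Fc receptors, had 557, 445 and 441 CPM in control and 524, 506 and 511 CPM in miR-125a-5p libraries. TYROBP, also called DAP12, had 382, 280 and 237 CPM in control and 262, 286 and 278 CPM in miR-125a-5p libraries. Both adaptors were highest in control library 1, and without it their log2 fold changes were 0.21 in place of 0.09 for FCER1G and 0.09 in place of -0.12 for TYROBP.

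The lineage transcription factors were less abundant, IRF8 apart, and 0 of 5 passed. IRF8, an interferon regulatory factor needed for monocyte and dendritic cell development, had 332, 274 and 290 CPM in control and 309, 276 and 334 CPM in miR-125a-5p libraries, with overlapping groups and a log2 fold change of 0.04. SPI1 had 42.1, 33.9 and 33.7 CPM in control and 30.9, 28.9 and 39.9 CPM in miR-125a-5p libraries, a log2 fold change of -0.14 (SE 0.15) that was -0.03 without control library 1 and -0.29 without miR-125a-5p library 3. Control library 1 was the highest and miR-125a-5p library 3 the next, so the groups overlapped. KLF4, a zinc-finger factor of monocyte differentiation, had 8.62 to 12.1 CPM in control and 11.4 to 15.0 CPM in miR-125a-5p libraries, a log2 fold change of 0.30 (SE 0.21).

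MAF, a basic leucine zipper factor of macrophages with a 7mer-A1, had 46.2, 37.3 and 37.4 CPM in control and 40.4, 37.5 and 35.5 CPM in miR-125a-5p libraries. Its log2 fold change of -0.10 was 0.01 without control library 1. CEBPB, a C/EBP factor induced in activated macrophages, had 70, 10 and 29 counts in control and 31, 25 and 20 counts in miR-125a-5p libraries. The control libraries alone differed by several fold, and the log2 fold change of -0.38 (SE 0.46) became 0.40 without control library 1, so no direction can be read from it. CEBPB shares 231 exon bases with CEBPB-AS1 on the opposite strand, and without a stated strand setting their reads cannot be told apart. The same holds for 220 exon bases of ITGB2 and ITGB2-AS1. Over the 6 libraries CEBPB-AS1 had 38 counts and ITGB2-AS1 511, whereas ITGB2 had 7327 to 11989 counts in each library. FCGR1A, VCAN, MMP9 and ITGAL also share exon bases with genes on the opposite strand, which have no row under their symbols. The largest of these overlaps are 561, 453, 430 and 294 bases, in that order. On the same strand, FCGR2A shares 201 exon bases with AL590385.2 and SPN 38 with AC009086.2, which have no row under their symbols either.

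MERTK, a receptor tyrosine kinase through which macrophages clear apoptotic cells, had the smallest p of the 39 genes. It had 29.7, 28.5 and 35.3 CPM in control and 23.5, 25.5 and 22.4 CPM in miR-125a-5p libraries, from 187 to 320 counts each. Every miR-125a-5p library lay below every control. The log2 fold change was -0.39 (SE 0.15, edgeR adjusted p = 0.670), 0.62 to 0.94 as a fold in the 95% interval, and it stayed between -0.45 and -0.29 with any 1 library left out. No 6mer was found in its searched 3′ UTR of 697 bases.

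Of the other surface receptors 0 of 8, MERTK included, passed. GPNMB had 850, 1021 and 931 CPM in control and 1173, 1221 and 693 CPM in miR-125a-5p libraries. The miR-125a-5p group thus held both the highest and the lowest of the 6 values, and the log2 fold change of 0.14 was 0.36 without miR-125a-5p library 3. TREM2 had 212 to 269 and 232 to 245 CPM, CD4, which monocytes also carry, 144 to 192 and 162 to 186 CPM, and CD33, a sialic acid-binding inhibitory receptor, 55.1 to 67.6 and 59.0 to 61.0 CPM. In these 3 genes the miR-125a-5p values lay within the range of the controls.

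LILRB1 and LILRB4 are inhibitory receptors of the leukocyte immunoglobulin-like family, whose members resemble each other in sequence. LILRB1 had 23.4, 26.5 and 28.6 CPM in control and 20.3, 26.0 and 20.5 CPM in miR-125a-5p libraries, a log2 fold change of -0.23 (SE 0.16). LILRB4 had 210 to 234 and 194 to 246 CPM. TREM1, an amplifier of inflammatory signals, had 32, 46 and 8 counts in control and 11, 22 and 11 counts in miR-125a-5p libraries, so its log2 fold change of -0.90 (SE 0.52, edgeR adjusted p = 0.881) rested on few counts and was -0.28 without control library 2.

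The secreted and matrix genes had no common direction, with 3 of 4 tested genes positive and a median log2 fold change of 0.07. SPP1 had 2157, 1970 and 1751 CPM in control and 2116, 2007 and 1488 CPM in miR-125a-5p libraries. Library 3 was the lowest of each group, and the log2 fold change of -0.07 was 0.07 without miR-125a-5p library 3. MMP9, the gelatinase that degrades type IV collagen, had 8.93, 10.8 and 10.8 CPM in control and 11.3, 13.3 and 13.8 CPM in miR-125a-5p libraries. All miR-125a-5p libraries were higher, at 91 to 122 counts in the 6 libraries, with a log2 fold change of 0.33 (SE 0.20, edgeR adjusted p = 0.884). TIMP1, an inhibitor of such metalloproteinases, had 160 to 193 and 161 to 198 CPM, and VCAN, the matrix proteoglycan versican, 600 to 840 and 696 to 843 CPM. VCAN was lowest in control library 1.

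For the S100 genes 0 of 4 passed. S100A4 had 56.7 to 64.3 CPM in control and 51.9 to 59.8 CPM in miR-125a-5p libraries, and S100A6 43.5 to 49.5 and 46.4 to 49.2 CPM. S100A8 had 36 to 66 counts per library in control and 35 to 63 after miR-125a-5p, and S100A9 34 to 56 and 26 to 35. As a fold, the 95% intervals ran from 0.65 to 1.55 for S100A8 and from 0.50 to 1.28 for S100A9, and both hold changes in either direction.

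**Figure D3:**
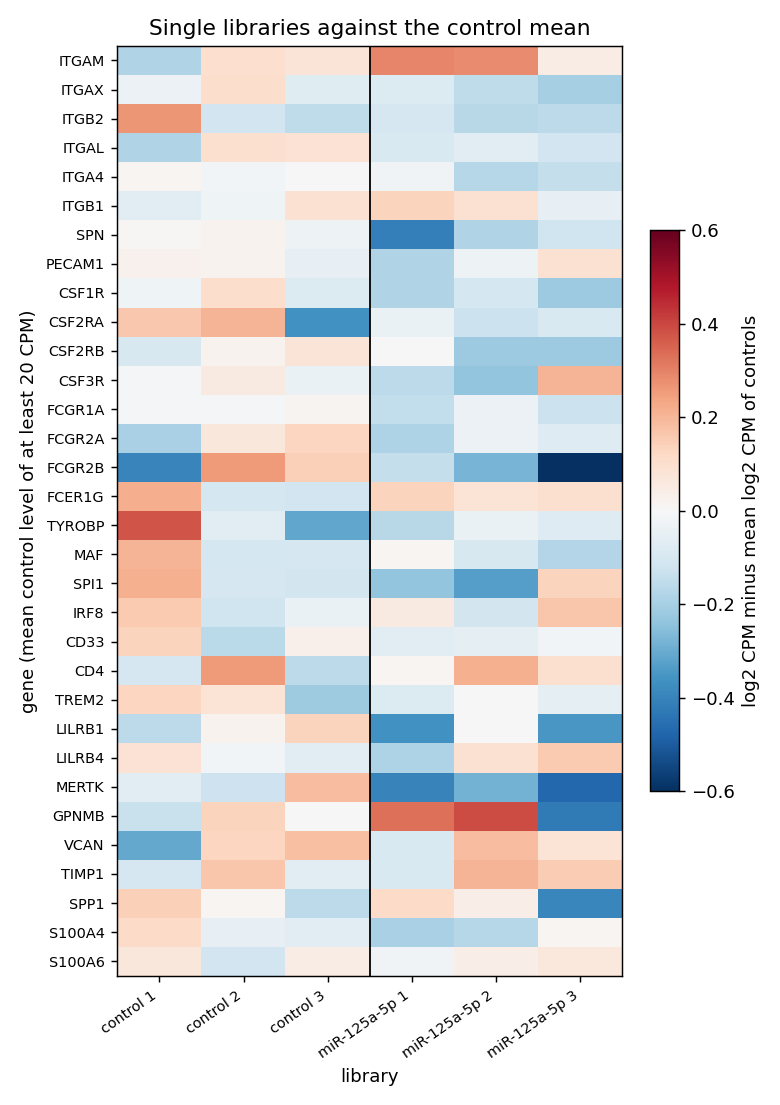
Log2 CPM of the 32 genes with a control level of at least 20 CPM in each library, minus the mean of the 3 control libraries (colour, -0.60 to 0.60; the values run from -0.60 to 0.39). Control library 1 differs from the other controls in ITGB2, TYROBP, FCGR2B and VCAN, and miR-125a-5p library 3 from the other miR-125a-5p libraries in GPNMB and SPP1.

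The members with the most negative point estimates, TREM1, FCGR3A, MERTK, CEBPB and FCGR2B, held no seed match in the 3′ UTR searched. The same was true of 26 of the 39 tested members (66.7%) and of 62.9% of all tested genes searched. TREM1, FCGR3A and CEBPB rested on few counts, with an SE of 0.52, 0.54 and 0.46, so their place in this order is uncertain. The 5 genes with a match of 7 or 8 bases had log2 fold changes between -0.15 and 0.21, and the 26 tested genes with none, SPN among them, had a median of -0.11 with 17 negative. Among all tested genes the median was -0.064 with an 8mer and 0.015 with no match. The 8 tested genes with a 6mer alone had a median of -0.05, beside 0.010 for all tested genes of that class. With so few members in each class these values are descriptions and the classes were not compared.

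Related genes outside the 40 were listed in 7 groups, 128 genes in all, of which 105 were tested and 0 were called in either direction by edgeR. Point estimates were negative for 62 and positive for 43, with a median of -0.06, and 7 were lower and 5 higher at an unadjusted edgeR p under 0.05, where 3.22% and 2.69% of all tested genes were. The symbol FCGR1B was not matched and is not analysed here. The ligand CSF1 was present at 11.8 ± 3.44 CPM (SD, n = 3) in control libraries, while CSF2 and IL34 had 0 counts in all 6.

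In the following groups the genes with the smallest p are named, up to 2 in each, and none passed. Among ITAM signalling genes (0 of 12 called) LYN, a SRC-family kinase, had 248, 232 and 211 CPM in control and 209, 176 and 190 CPM in miR-125a-5p libraries, with a log2 fold change of -0.27 (SE 0.10, edgeR adjusted p = 0.655), and FCGR2C had -0.25, which was -0.43 without control library 1. Among myeloid transcription factors (0 of 16) TFEC had a log2 fold change of -0.21 (SE 0.09, edgeR adjusted p = 0.790). The other monocyte and macrophage genes (0 of 21) were led by AXL, a kinase of the same family as MERTK, at -0.26 (SE 0.10, edgeR adjusted p = 0.686), and by LYZ, lysozyme, at 0.25. AXL had 419, 346 and 316 CPM in control and 314, 302 and 288 CPM in miR-125a-5p libraries, the closest pair differing by about 2 CPM, and its log2 fold change was -0.14 without control library 1.

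TYRO3, the third kinase of that family, had a positive point estimate of 0.63 at 3.63 to 9.51 CPM, and was chosen after its value was seen. Integrins and adhesion partners (0 of 18) were led by ITGAE at 0.53 and ITGB3 at -1.02 (-1.46 to -0.63 with 1 library left out), both under 11 CPM. The CSF group (0 of 11) was led by KIT at 0.91, at 1.30 to 4.55 CPM, and STAT5B, a transcription factor activated by these receptors, at 0.26. Surface receptors (0 of 19) were led by CLEC12A, an inhibitory lectin of myeloid cells, at 0.51, with every miR-125a-5p library above every control, and LILRA6 at -0.47, which was -0.22 without control library 1. S100 and annexin genes (0 of 8) were led by S100A13 at -0.48 and ANXA2 at 0.14.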

How the data were processed

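The authors' deposited file holds raw read counts per gene without normalization. The submitters' processing notes name bcl2fastq, TopHat, edgeR and the build hg19. How reads were counted, with which annotation and strand setting, and what was done with multiply matching reads, is not given in the sources used here. Columns were matched to libraries by the names in the labels, and 26204 rows (99.5%) matched a RefSeq symbol. Of 21274 genes with any count filterByExpr kept 14731, which were tested with glmQLFit and glmQLFTest of edgeR 4.0.16 (R 4.3.3), no covariate, Benjamini-Hochberg threshold 0.05. The fit was tested on simulated counts, and the outcome of that run is not used for any result above. The 1 member not tested was FCN1. SE is the log2 fold change divided by the square root of F. Exon lengths (union) and 3′ UTRs of at least 20 bases come from GENCODE 29 basic coding transcripts on GRCh38, which differs from hg19. Alternatives were DESeq2 1.42.0, edgeR with RLE (relative log expression) in place of TMM factors, no count filter, the replicate block and each library left out. All 40 members are named, and of each related list the called genes and the 2 with the smallest p, apart from items not reported here. The members and lists were chosen with earlier results of these data known.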

Additional observations from a re-analysis of the deposited data

How the results depend on the processing

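Under all 10 alternatives 0 members were called (DESeq2 gave 34 of the 39 an adjusted p), with a smallest adjusted p of 0.332. Over all genes, 4 were called in the comparison reported, 52 (41 lower) with no count filter, 12 (10 lower) by DESeq2, 9 with the replicate block and 3 to 14 with 1 library left out, 14 without control library 3. The members' median log2 fold change lay between -0.10 and -0.03 with 1 library left out, the last without control library 1, and 22 to 29 of 39 were negative. Of 390 recomputed member values 369 kept their direction and 21 reversed, all 21 with 1 library left out. They came from 14 genes, whose ranges were -0.27 to 0.09 for TYROBP, -0.15 to 0.01 for MAF and for TREM2, -0.79 to 0.40 for CEBPB, -0.13 to 0.01 for CD33, -0.09 to 0.14 for VCAN, -0.17 to 0.07 for SPP1, -0.24 to 0.23 for S100A8, -0.03 to 0.12 for IRF8, -0.03 to 0.05 for S100A6, -0.04 to 0.12 for LILRB4, -0.11 to 0.03 for PECAM1, -0.20 to 0.04 for CSF3R and -0.00 to 0.36 for GPNMB. The cause was not tested. The deviations of same-numbered libraries correlated at 0.0558, 0.0138 and -0.0156, so the numbers were not taken as a pairing, and the replicate block moved the members' median from -0.10 to -0.09 with 26 negative. The widest intervals, beyond 2-fold, were those of FCGR3A, CEBPB, TREM1 and S100A9, each with at most 70 counts in any library.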
